A study of Mus musculus with 15 samples.

Results

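The 31 constitutive proteasome subunit genes were taken by symbol from the deposited count table: Psma1 to Psma7 and Psmb1 to Psmb7 of the 20S core, and Psmc1 to Psmc6 and 11 Psmd genes (Psmd1, Psmd2, Psmd3, Psmd4, Psmd6, Psmd7, Psmd8, Psmd11, Psmd12, Psmd13 and Psmd14) of the 19S regulator. All 31 were found among 25700 gene identifiers, and all 31 were among the 11883 genes with enough counts to be tested. The libraries came from mouse bone marrow derived macrophages, which are macrophages grown in culture from the marrow of femurs and tibias. All 5 groups came from mice 8 to 10 weeks old and were grown for 7 days in RPMI medium with recombinant M-CSF at 10 ng/ml, the growth factor that turns marrow precursors into macrophages. The control group received nothing further. Another 2 groups received heme-albumin at 200 µM or at 400 µM, which is hemin dissolved and bound to human serum albumin and was used to give cells resembling macrophages that have eaten red blood cells. The remaining groups received interleukin 4 (IL-4) at 10 ng/ml, called M2 in the labels, or interferon gamma (IFN-γ) at 10 ng/ml, called M1. Each group held 3 libraries. The strain, the sex and how long treatment lasted are not given in the sources used here. No group without heme but with albumin alone was analysed here, so heme and its carrier cannot be told apart. Whether replicates were different mice or cultures is not stated, so the spread behind each p-value may be technical.

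The proteasome is the main protease of the cytosol and nucleus and destroys proteins that carry ubiquitin chains. Its 20S core is a barrel of α and β rings, and the proteolytic sites lie on the inner face of the β rings, in the subunits encoded by Psmb5, Psmb6 and Psmb7. The 19S regulator caps the barrel, where its ATPases unfold the substrate and its other subunits bind ubiquitin or cut it off. In macrophages IFN-γ is known to induce a second set of catalytic subunits, which form the immunoproteasome that cuts peptides for antigen presentation.

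Most of these genes rose with heme-albumin, by a modest amount. Fewer were called with IFN-γ and IL-4, in numbers near or below the shares of all genes. Levels below are CPM, each library's counts divided by its TMM-scaled size, and changes are log2 fold changes ± SE from edgeR's quasi-likelihood test over all 15 libraries. A gene rose or fell when its Benjamini-Hochberg adjusted p over all 11883 genes was under 0.05. At 200 µM 28 of the 31 rose and 1 fell against control, where 14% of all genes tested rose and 9.48% fell. At 400 µM 21 rose and 0 fell, where 14.7% of all genes rose and 10.8% fell. With IL-4 3 rose and 1 fell, against 14.9% and 12% of all genes. With IFN-γ 9 rose and 2 fell, against 24.1% and 19.5% of all genes. Both IL-4 counts were thus below the shares of all genes. The IFN-γ rises were near their share and the falls below it. The median change of the 31 genes was 0.48 at 200 µM, 0.39 at 400 µM, 0.08 with IL-4 and 0.11 with IFN-γ, where the median of all genes tested was 0.02, 0.01, -0.00 and 0.05. All 4 comparisons share the 3 control libraries. In bulk RNA, fewer cells of a type and less RNA per cell cannot be told apart.

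**Figure D1:**
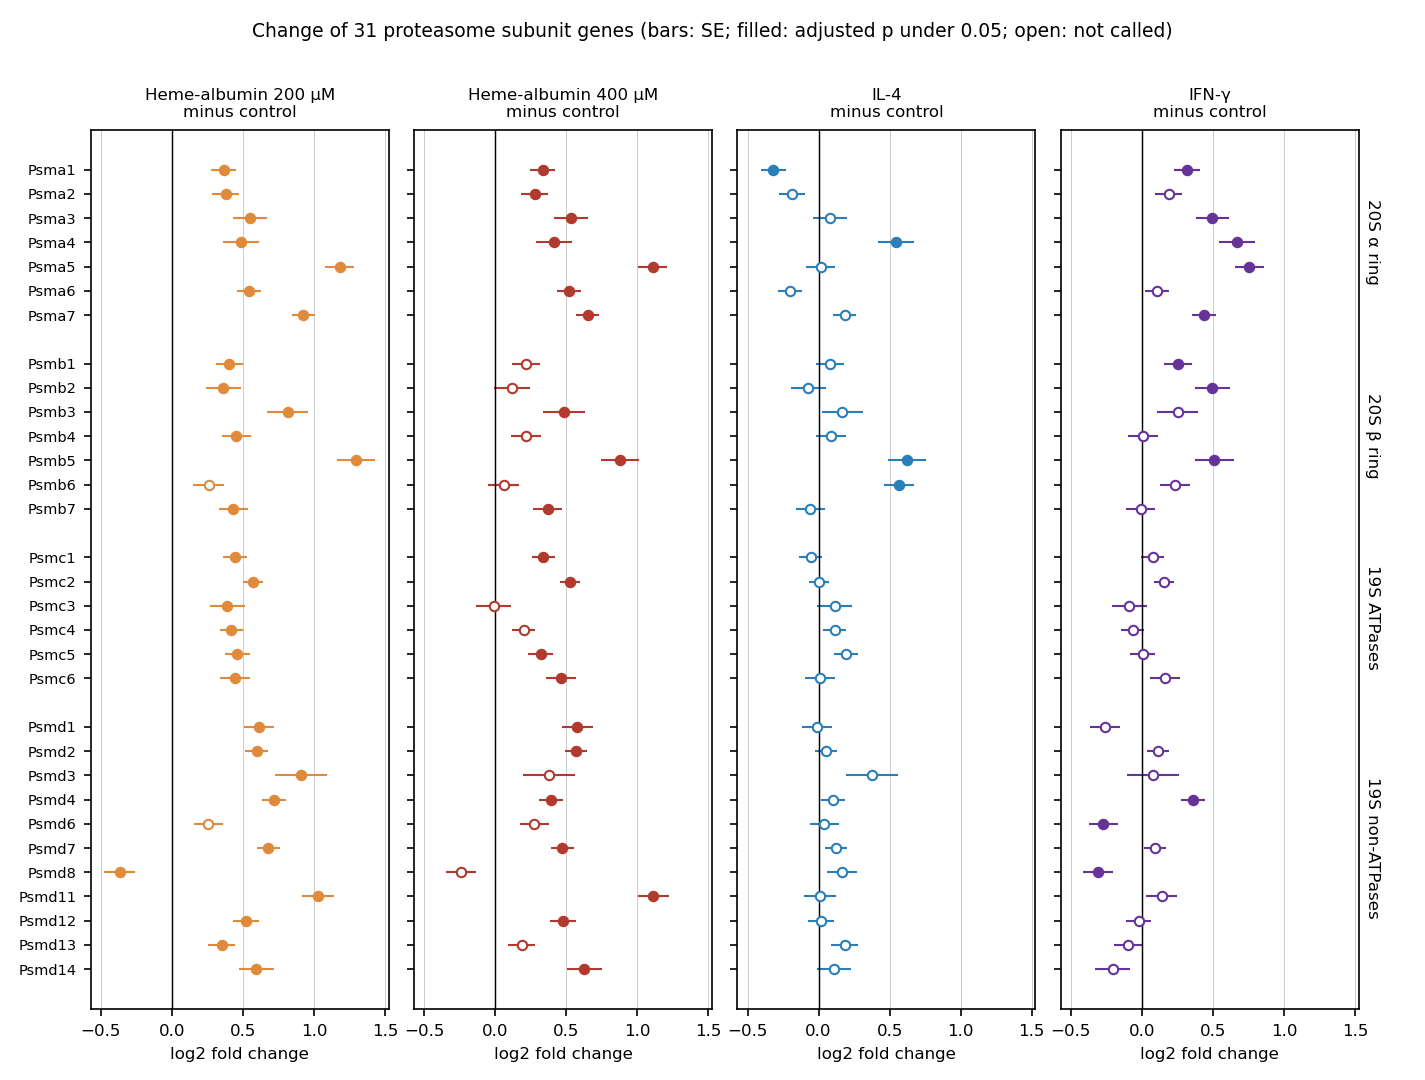
Log2 fold change against control (x axis, bars are SE, 3 libraries per group) of the 31 subunit genes (y axis, grouped by place in the complex) in the 4 treatments; filled points had an adjusted p under 0.05. Points lie to the right of 0 for 30 of 31 genes at 200 µM heme-albumin, and for 24 with IL-4 and 22 with IFN-γ.

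The promoters shown here were picked because they belong to the 3 genes with the largest rise at 200 µM heme-albumin and to the 1 gene that fell. They are the 150 bases that lie from 180 to 31 bases before the RefSeq start, from the RefSeq promoter table (build GRCm38.p6), written 5′ to 3′ on the strand of the gene. Psmb5 lies at chr14:54618026-54618175 (minus strand), Psma5 at chr3:108256746-108256895 (plus strand), Psmd11 at chr11:80428435-80428584 (plus strand) and Psmd8 at chr7:29180704-29180853 (minus strand). Capitals mark the string TGACNNNGC, the core of the antioxidant response element, in Psmb5, and CCGGAA on the reverse strand, the core bound by ETS factors, in Psma5.
Psmb5: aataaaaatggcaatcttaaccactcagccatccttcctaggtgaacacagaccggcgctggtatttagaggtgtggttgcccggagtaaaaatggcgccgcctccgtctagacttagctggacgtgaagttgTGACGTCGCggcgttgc
Psma5: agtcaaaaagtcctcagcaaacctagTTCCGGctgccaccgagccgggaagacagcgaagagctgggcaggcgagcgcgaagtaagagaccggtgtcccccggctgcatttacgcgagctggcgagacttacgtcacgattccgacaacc
Psmd11: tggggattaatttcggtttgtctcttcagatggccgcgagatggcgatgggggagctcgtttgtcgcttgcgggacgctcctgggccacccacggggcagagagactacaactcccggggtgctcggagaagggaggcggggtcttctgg
Psmd8: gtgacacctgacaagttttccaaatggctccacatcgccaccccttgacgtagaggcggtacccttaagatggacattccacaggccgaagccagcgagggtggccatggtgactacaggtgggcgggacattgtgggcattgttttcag

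Of the 31 genes, 25 had a promoter in that table, and the 250 bases before the start were searched on both strands for 8 strings chosen after the expression values were seen. TGACNNNGC was in 4 of 25 promoters (16%), in Psmb5, Psmb6, Psmc6 and Psmd12, against 14.1% of the 9276 tested genes with a promoter. In Psmb5 it ran from base -47 to base -39, and its letters were TGACGTCGC. CCGGAA was in 12 of 25 (48%), against 26.3% of tested genes, and GCGGAAG, which overlaps the same core, in 6 (24%) against 10.6%. In Psmd11 the CCGGAA match lay at bases -10 to -5, closer to the start than the stretch printed. CCAAT was in 10 (40%) against 41.0%, and GGGCGG in 14 (56%) against 63.9%. TATAAA was in 3 (12%) against 7.69%, and CACGTG in 1 (4%) against 10.1%. The palindrome of nuclear respiratory factor 1, which is not the protein encoded by Nfe2l1, was in 1 (4%) against 2.02%. These are matches of letters in a window, and no binding was measured.

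Transcript levels within the complex were uneven in control macrophages even though its subunits are assembled in fixed proportions. Per kilobase of the longest principal transcript, control levels ran from 30.5 ± 1.10 CPM per kb (SD, n = 3) for Psmd11 to 223 ± 14.5 for Psmd8, with Psmb6 next at 198 ± 11.2. Psmd11 was also last of 31 when the length of all annotated exons was used, and Psmd8 was then in place 2. Psma3 at 31.2 ± 3.14 lay within its spread of Psmd11, and many neighbours in between overlapped in the same way. Other annotated genes share near-identical stretches with Psmd11 (up to 1501 bases) and Psma3 (up to 772). Reads that fit both places could have been dropped, so the levels of Psmd11 and Psma3 may read too low. The gene of lowest level in control, Psmd11, was among the 3 that rose most with heme-albumin, and the gene of highest level, Psmd8, was the one that fell. The genes beside them did not follow: at 200 µM Psma3 rose by 0.55 and Psmb6 was not called. Psma6, in place 1 by all annotated exons, rose. A link between level and change was not tested.

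The α ring gates entry into the core, and all 7 of its genes rose at both heme-albumin doses. Over all genes tested 14% rose at 200 µM and 14.7% at 400 µM. Psma5 (chromosome 3, 108256926 to 108279974, plus strand, GENCODE M21 on GRCm38), which encodes the α5 subunit, rose most. Its level was 85.5, 80.7 and 71.9 CPM in controls 1 to 3, and 181, 168 and 191 at 200 µM. At 400 µM it was 177, 158 and 178. No heme-albumin library overlapped a control, and the control mean was 79.4. The change was 1.18 ± 0.10 at 200 µM (adjusted p = 5.13e-06) and 1.11 ± 0.10 at 400 µM (adjusted p = 8.74e-06). Psma7 (chromosome 2, 180036374 to 180042433, minus strand), the α4 subunit, read 118, 114 and 119.7 CPM in controls, 223, 218 and 226 at 200 µM, and 191, 163 and 198 at 400 µM. Its changes were 0.92 ± 0.08 and 0.65 ± 0.08 (adjusted p = 5.20e-06 and 8.14e-05). Replicate 2 was the lowest of the 3 libraries at 400 µM for both genes. The other 5 α genes rose by 0.36 to 0.55 at 200 µM and by 0.28 to 0.53 at 400 µM. Summed over the α ring, CPM were 152% of the control mean at 200 µM and 143% at 400 µM.

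The β ring carries the proteolytic sites, and 6 of its 7 genes rose at 200 µM and 3 at 400 µM (Psmb3, Psmb5 and Psmb7). Of all genes tested 14% and 14.7% rose at these doses. Psmb5 (chromosome 14, 54614119 to 54618022, minus strand) encodes β5, the chymotrypsin-like site and the one bound most tightly by the drug bortezomib. It read 57.1, 56.4 and 57.8 CPM in controls and 143, 140.3 and 137 at 200 µM, the largest change of the 31 genes at 1.29 ± 0.14 (adjusted p = 2.11e-05). At 400 µM it read 120.3, 79.4 and 115, a change of 0.88 ± 0.14 (adjusted p = 4.10e-04), and 1.04 without replicate 2. Replicate 2 thus lay between the controls and the other libraries of its dose. Psmb3 (chromosome 11, 97703399 to 97713500, plus strand), the non-catalytic β3, read 67.2, 66.7 and 61.7 CPM in controls. It read 118, 108 and 119 at 200 µM (0.81 ± 0.14), and 107, 67.9 and 98.2 at 400 µM (0.48 ± 0.14). Its replicate 2 at 400 µM was almost level with the highest control. The remaining catalytic genes moved less. Psmb7, the trypsin-like β2, rose by 0.43 ± 0.10 and 0.37 ± 0.10. Psmb6, the caspase-like β1, was the one β gene not called at 200 µM, with 0.26 ± 0.11 (adjusted p = 0.102), and its 3 libraries of 189, 196 and 181 CPM still lay above the controls at 148, 162 and 164.

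The 6 ATPases form the ring that pulls substrate into the core, and their changes at 200 µM were the most alike of the 4 subunit classes. All 6 rose, where 14% of all genes tested did, and their changes ran from 0.39 (Psmc3) to 0.57 (Psmc2). The SD over genes was 0.06, against 0.31 in the α ring, 0.36 in the β ring and 0.37 in the non-ATPases. Psmc2 (chromosome 5, 21785283 to 21803787, plus strand) read 128, 131 and 124 CPM in controls, 190.3, 182 and 196 at 200 µM, and 177, 185 and 189 at 400 µM. Its changes were 0.57 ± 0.07 and 0.52 ± 0.07 (adjusted p = 8.60e-05 and 1.51e-04), and no heme-albumin library overlapped a control. Psmc5 (chromosome 11, 106256154 to 106263120, plus strand) read 104, 101 and 101 CPM in controls, 146, 138 and 137 at 200 µM, and 134, 109.6 and 137 at 400 µM. At 400 µM 4 of 6 ATPases rose, where 14.7% of all genes tested did. Psmc4 (0.20 ± 0.08) did not pass the test, and Psmc3 had a mean of 150.4 ± 29.9 CPM (SD, n = 3) beside 152 ± 4.16 in controls.

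The non-ATPase subunits form the scaffold and lid of the regulator, and 9 of 11 rose at 200 µM and 7 at 400 µM. The shares of all genes tested that rose were 14% and 14.7%. Psmd11 (chromosome 11, 80428615 to 80473248, plus strand), the lid subunit Rpn6 that clamps regulator and core together, read 88.3, 83.4 and 89.2 CPM in controls. It read 173, 183 and 176 at 200 µM and 167, 221 and 176 at 400 µM. Its levels about doubled at both doses, by 1.03 ± 0.11 and 1.11 ± 0.11 (adjusted p = 2.55e-05 and 1.62e-05). In this gene replicate 2 at 400 µM was the highest library, where it was the lowest for Psma5, Psma7, Psmb3 and Psmb5. Psmd3 (chromosome 11, 98682554 to 98695979, plus strand), another lid subunit, read 89.3, 91.0 and 103 CPM in controls and 192, 176 and 164 at 200 µM (0.91 ± 0.18, adjusted p = 0.00293). At 400 µM it read 158, 78.2 and 131, so that its replicate 2 fell below every control, and the change of 0.38 ± 0.18 did not pass the test (adjusted p = 0.148). Without that library it was 0.62 (adjusted p = 0.00150). Psmd14, the deubiquitinase that removes the chain from a substrate, rose by 0.59 ± 0.12 and 0.63 ± 0.12. The ubiquitin receptor Psmd4 rose by 0.72 ± 0.08 and 0.39 ± 0.08. The large scaffold subunits Psmd1 and Psmd2 rose by 0.61 ± 0.11 and 0.60 ± 0.08 at 200 µM, and by 0.58 ± 0.11 and 0.57 ± 0.08 at 400 µM.

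Only 1 gene, at 200 µM, fell with heme-albumin. This was Psmd8 (chromosome 7, 29174188 to 29180701, minus strand), which encodes the lid subunit Rpn12. It read 319, 364 and 345 CPM in controls and 251, 285 and 261 at 200 µM. It fell by 0.37 ± 0.11 on the log2 scale (adjusted p = 0.0224), with all 3 libraries under all 3 controls. The call was lost when control 2, control 3, or replicate 1 or 3 at 200 µM was left out (adjusted p = 0.0666, 0.0515, 0.0829 and 0.0666). At 400 µM it read 256, 334 and 280.1, a change of -0.24 ± 0.11 that did not pass the test (adjusted p = 0.111). It passed with the replicate block (-0.25, adjusted p = 0.0337) and without replicate 2 (-0.36, adjusted p = 0.0228). Psmd6 (chromosome 14, 14112174 to 14120984, minus strand), which encodes the lid subunit Rpn7, read 78.0, 74.5 and 69.0 CPM in controls, 97.6, 79.0 and 87.7 at 200 µM, and 78.4, 94.4 and 95.1 at 400 µM. All these libraries lay above all controls, but the changes of 0.25 ± 0.10 and 0.27 ± 0.10 did not pass the test (adjusted p = 0.0864 and 0.0640). At 400 µM the gene was called higher with the filter of 5 CPM in 3 libraries and without replicate 1.

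**Figure D2:**
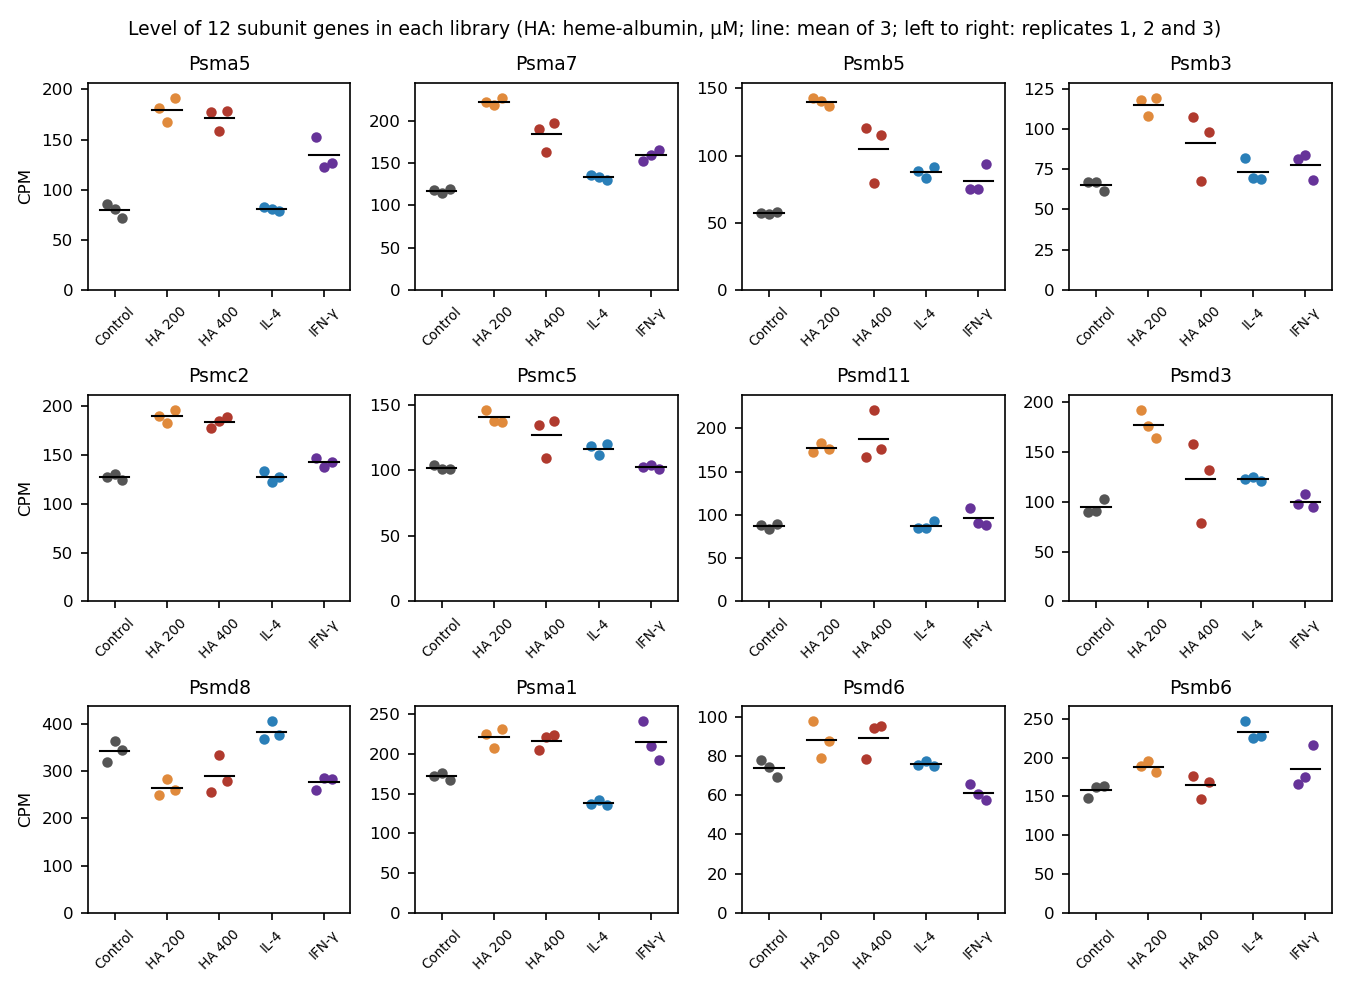
CPM (y axis, from 0) of 12 subunit genes in each of the 15 libraries, with 3 points per group in the order of replicates 1 to 3 and a line at the mean. Psmb5 sits at 56.4 to 57.8 in controls and 137 to 143 at 200 µM heme-albumin, and Psmd8 is lower at 200 µM (251 to 285) than in controls (319 to 364).

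Of the 28 rises at 200 µM, 20 held under all 13 alternative settings. The other 8 (Psma1, Psma2, Psma4, Psmb1, Psmb2, Psmc3, Psmc6 and Psmd13) missed the threshold in at least 1 of them, all with a change of at most 0.48. At 400 µM 14 of 21 held under all 14 settings, and Psma1, Psma2, Psma4, Psmb3, Psmb7, Psmc1 and Psmc5 did not. Each replicate number goes with its own date in the column headers, 3 dates in all. Within each date 30 of 31 genes were higher at 200 µM than in the control of that date, and Psmd8 was lower in all 3. At 400 µM 30 of 31 were higher on the dates of replicates 1 and 3, and 23 on that of replicate 2. Such counts by date over all genes tested were not made.

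Replicate 2 at 400 µM stood apart from the other libraries of its group. Over genes with at least 10 counts in the pair its chi-square per degree of freedom was 62.4 and 49.0 against replicates 1 and 3, which differed from each other by 10.8. Its 31 subunit genes did not move as a block: 20 were below and 11 above the mean of replicates 1 and 3, from -0.89 (log2) for Psmd3 to 0.37 for Psmd11. Psmb3 (-0.60), Psmb5 (-0.57) and Psmc3 (-0.53) followed Psmd3, and Psmd8 (0.32) stood beside Psmd11. The SD of this deviation over the 31 genes was 0.28, against 0.06 to 0.20 in the other 14 libraries. Over 7154 more abundant genes of all kinds it was larger in this library, at 0.44. IFN-γ replicates 1 and 3 had still larger values over those genes, 0.45 and 0.64. Left out, it gave 24 rises and 1 fall (Psmd8) at 400 µM in place of 21 and 0. What sets this library apart was not tested.

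**Figure D3:**
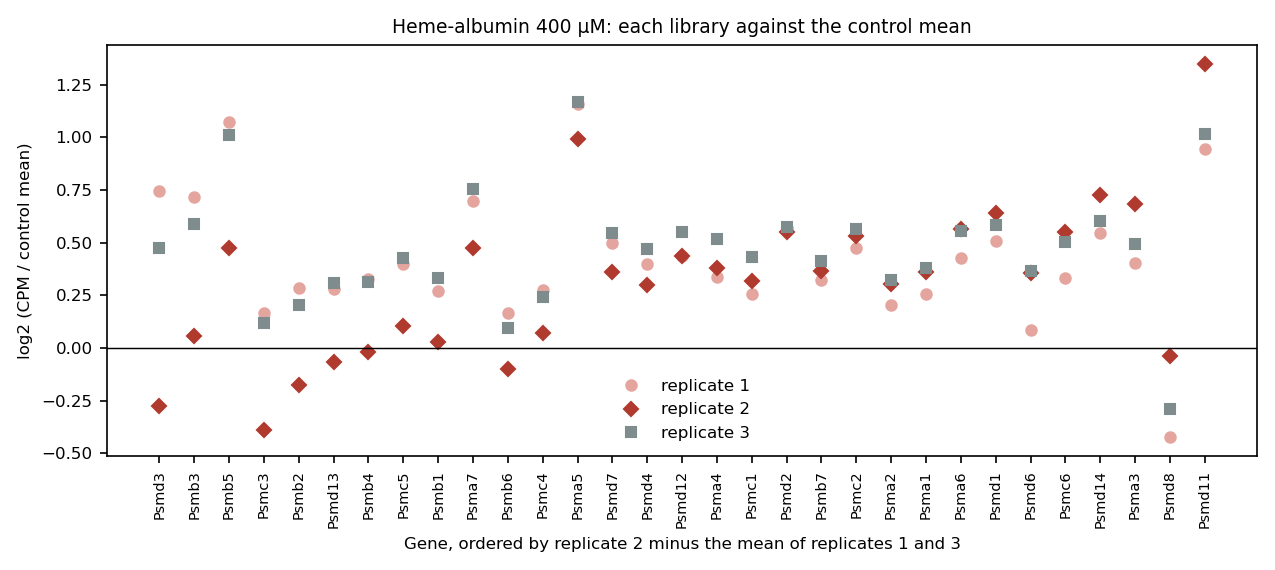
Log2 ratio of each 400 µM heme-albumin library to the control mean (y axis) for the 31 genes, ordered by replicate 2 minus the mean of replicates 1 and 3. At the left replicate 2 lies well below the others (Psmd3, -0.89 from their mean) and at the right above them (Psmd11, 0.37).

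The doses were compared directly, and no subunit gene passed the test between 400 and 200 µM. Over all genes 0% were called in either direction, and 1796 had an unadjusted p under 0.05. Among the 31 genes 9 had an unadjusted p under 0.05, all lower at 400 µM, and DESeq2 called 0. The median difference was -0.10. The largest were Psmd3 at -0.53 ± 0.18, Psmb5 at -0.42 ± 0.13 and Psmc3 at -0.40 ± 0.12 (adjusted p = 0.292 for each). These 3 genes are also among the 4 lowest in replicate 2 of the higher dose, and all 3 were lower at 400 µM on the other dates too. Within dates 17 of the 31 genes were lower at 400 µM on all 3 and 1 was higher. For 11 every 400 µM library lay below every 200 µM library. How many of all genes tested do the same was not counted, so these counts are not a result about the subunit genes. A p that misses the threshold does not show that the doses act alike. All 21 genes that rose at 400 µM were among the 28 that rose at 200 µM, and both counts rest on the same controls.

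Summed over the 31 genes, expression at 200 µM was 5840, 5465 and 5742 CPM in replicates 1 to 3, against 4060, 3999 and 3964 in controls. At 400 µM it was 5235, 5059 and 5421. These were 142% and 131% of the control mean, and no library of either dose reached down to a control. IL-4 gave 4346, 4221 and 4275 (107%) and IFN-γ 4636, 4333 and 4172 (109%), which on this scale lay above every control. As a share of all counts, with no TMM factor, both overlapped with controls: 0.430% to 0.445% with IL-4 and 0.370% to 0.474% with IFN-γ, against 0.433% to 0.455%. Both heme-albumin doses stayed above the controls on that scale too, at 0.509% to 0.570% and 0.465% to 0.525%. The 20S core stood at 147% and the 19S regulator at 138% of control at 200 µM, and at 133% and 129% at 400 µM. With IL-4 both stood near 107% and 106%. With IFN-γ the core stood at 125% and the regulator at 98.3%.

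**Figure D4:**
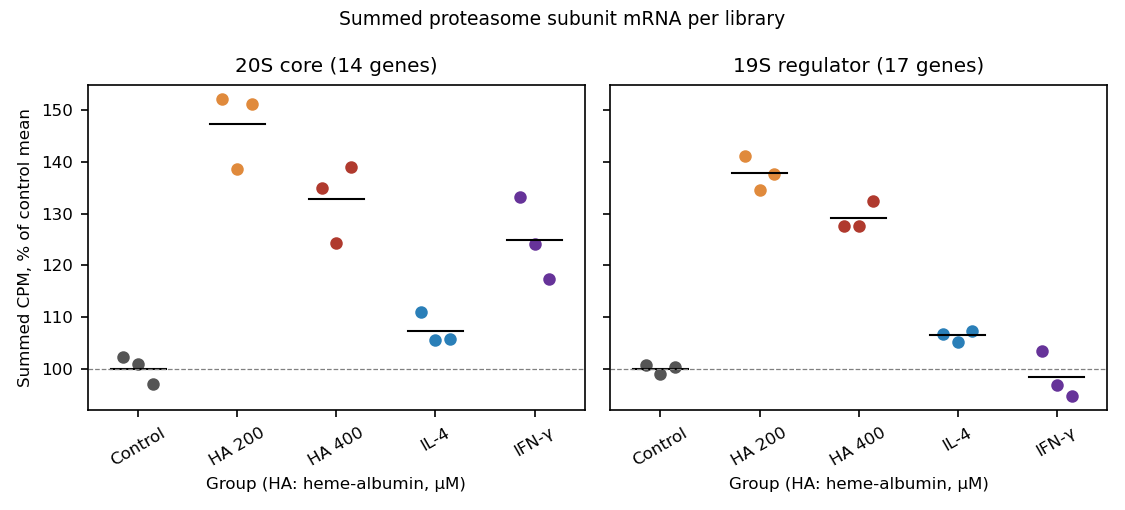
Summed CPM of the 14 core genes (left) and 17 regulator genes (right) in each library, as a percentage of the control mean (y axis, which does not start at 0); lines are means of 3. With IFN-γ the core points lie at 117% to 133% and the regulator points at 94.7% to 103%.

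IFN-γ replicate 3 stood apart from its group: over genes with at least 10 counts in the pair its chi-square per degree of freedom was 135 and 130 against replicates 1 and 2, which differed by 44.7. Without it 10 genes rose and 1 fell in place of 9 and 2. The rises with IFN-γ were mostly in core genes, where 24.1% of all genes tested rose and 19.5% fell. Of the 14 core genes 8 rose and 0 fell (5 in the α ring and 3 in the β ring), with a median of 0.29. Of the 17 regulator genes 1 rose (Psmd4, 0.36 ± 0.08) and 2 fell, with a median of 0.01. Both regulator counts were below the shares of all genes. The difference between core and regulator was not tested. With upper-quartile factors the median of the 31 genes was 0.00 in place of 0.11, and 7 rose. Psma5 rose most and read 153, 123 and 126 CPM beside 71.9 to 85.5 in controls (0.76 ± 0.10, adjusted p = 6.83e-05). Psma4 read 204, 176 and 137 beside 100.1 to 113 (0.67 ± 0.13, adjusted p = 9.26e-04), and Psmb5 read 75.2, 75.3 and 93.6 beside 56.4 to 57.8 (0.51 ± 0.13). All libraries of these 3 genes lay above all controls, with replicate 3 apart in the last 2. Psmb2 (0.50 ± 0.12), Psma3 (0.50 ± 0.12) and Psma7 (0.44 ± 0.08) also rose.

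Psma1 (0.32 ± 0.09) and Psmb1 (0.25 ± 0.10, adjusted p = 0.0498) rose with IFN-γ too, but missed the threshold under other settings, Psmb1 with the replicate block among them (adjusted p = 0.0565). The genes that fell, Psmd8 and Psmd6, were also not among those that rose with heme-albumin. Psmd8 read 259.6, 287 and 284 CPM (-0.31 ± 0.11, adjusted p = 0.0307), and Psmd6 read 65.6, 60.8 and 57.3 (-0.27 ± 0.10, adjusted p = 0.0442). Both lay below all controls. Psmd6 was not called with the replicate block (adjusted p = 0.0515) or without IFN-γ replicate 2 or 3 or control 1 or 2, and Psmd8 not without control 2 or 3 or IFN-γ replicate 1. Psmd1 had the next lowest value, -0.26 ± 0.11 (adjusted p = 0.0633), and fell with the replicate block (adjusted p = 0.0454).

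In the fit over all 15 libraries IL-4 moved 4 genes, all in the core, where 14.9% of all genes rose and 12% fell. Psmb5 read 88.8, 83.2 and 91.9 CPM (0.62 ± 0.13, adjusted p = 0.00371). Psmb6 read 247, 225 and 228 beside 148 to 164 in controls (0.56 ± 0.11, adjusted p = 0.00156), and Psma4 read 167, 148 and 159 (0.55 ± 0.13, adjusted p = 0.00579). These 3 rises, of β5, β1 and α3, did not overlap with controls and held under all 13 alternative settings. Psma1, which encodes α6 (chromosome 7, 114264606 to 114276118, minus strand), went the other way: it read 137, 142 and 135 CPM beside 167 to 176 in controls (-0.32 ± 0.09, adjusted p = 0.0184). The same gene rose with heme-albumin and with IFN-γ. Its fall missed the threshold without control 2 or IL-4 replicate 1 or 3 (adjusted p = 0.0501, 0.0616 and 0.0538). Psma6 (-0.20 ± 0.08) and Psma2 (-0.19 ± 0.09) had the next lowest values and were not called. None of the 17 regulator genes was called in that fit, with a range from -0.06 to 0.38. Fitted to the IL-4 and control libraries alone, Psmd3 and Psmc5 of the regulator and Psma7 of the core also rose. Psma2 and Psma6 also fell there.

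Heme-albumin at 400 µM was set directly against both cytokines. Against IL-4 17 of 31 genes were higher and 2 lower, where 20.5% of all genes were higher and 19.7% lower. Psmd11 (1.10 ± 0.11) and Psma5 (1.09 ± 0.10) differed most, followed by Psma6 (0.72 ± 0.08). Psmb6 (-0.51 ± 0.11) and Psmd8 (-0.41 ± 0.11) were the ones lower with heme-albumin. Against IFN-γ 18 were higher and 1 lower, where 20.6% of all genes were higher and 22.3% lower. Of the 18, 13 were regulator genes (of 17) and 5 core genes (of 14), led by Psmd11 (0.97 ± 0.11), Psmd1 (0.84 ± 0.11) and Psmd14 (0.83 ± 0.12). Psmb2 was higher with IFN-γ (-0.38 ± 0.12). Fitted to the 6 libraries of these groups alone, 5 of the 18 passed (Psmd1, Psmd6, Psmd11, Psmd12 and Psmd14), and Psmb2 did not. Without 400 µM replicate 3 or IFN-γ replicate 2 the count was 11.

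Each constitutive catalytic subunit has an inducible partner that can take its place in the immunoproteasome: Psmb8 for Psmb5, Psmb9 for Psmb6 and Psmb10 for Psmb7. IFN-γ raised the partners far more than the constitutive genes. Psmb8 went from 113 ± 20.2 to 503 ± 51.0 CPM (SD, n = 3), Psmb9 from 46.5 ± 4.38 to 228 ± 38.8, and Psmb10 from 48.3 ± 5.23 to 304 ± 53.0, changes of 2.15 ± 0.13, 2.29 ± 0.17 and 2.66 ± 0.21. In all, 7 of 8 genes of the immunoproteasome and proteasome activator list rose with IFN-γ, where 24.1% of all genes did. With heme-albumin this list did not follow the constitutive genes. At 200 µM 0 of 8 rose and 3 fell, namely Psmb9 (-0.74 ± 0.17), Psme2 (-0.32 ± 0.09) and Psme1 (-0.31 ± 0.10). Over all genes 14% rose and 9.48% fell at that dose. At 400 µM 1 rose and 5 fell, among them Psmb9 (-0.99 ± 0.17), Psmb10 (-0.60 ± 0.20) and Psmb8 (-0.42 ± 0.13). There 14.7% of all genes rose and 10.8% fell. Psme1 and Psme2 encode the PA28 activator, which opens the core without ubiquitin or ATP. With IL-4 Psmb10 rose to 114 ± 5.62 CPM (1.24 ± 0.20), while Psmb8 (-0.46 ± 0.13) and Psmb9 (-0.61 ± 0.17) fell. The falls of Psmb8 and Psmb10 at 400 µM, of Psmb8 and Psmb9 with IL-4, and of Psme1 and Psme2 at 200 µM missed the threshold when some single libraries were left out, and Psme1 did so with the replicate block (adjusted p = 0.0518).

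Expressed per kb of transcript, the constitutive share of the β5 pair, Psmb5 over Psmb5 plus Psmb8, was 51.1%, 42.8% and 50.0% in controls. It was 71.8%, 70.9% and 72.9% at 200 µM and 70.1%, 65.1% and 71.4% at 400 µM. With IL-4 it was 66.9%, 63.3% and 67.5%, and with IFN-γ 23.3%, 21.1% and 23.6%. Heme-albumin and IL-4 libraries all lay above the controls, and IFN-γ libraries all below. The β1 share, of Psmb6, was 85.2% ± 0.88 (SD, n = 3) in controls, 92.0% ± 0.20 at 200 µM, 92.4% ± 1.36 at 400 µM, 92.8% ± 0.56 with IL-4 and 58.1% ± 2.74 with IFN-γ. The β2 share, of Psmb7, was 74.0% ± 3.04 in controls, 79.6% ± 1.31 at 200 µM and 85.0% ± 4.46 at 400 µM. It was 53.7% ± 1.30 with IL-4 and 31.4% ± 6.84 with IFN-γ. IL-4 thus lay above controls at the β5 and β1 sites, as heme-albumin did. At the β2 site it lay below controls, as IFN-γ did, but above every IFN-γ library (52.2% to 54.6% against 24.7% to 38.4%). These are shares of mRNA, with no test beyond those of the single genes.

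**Figure D5:**
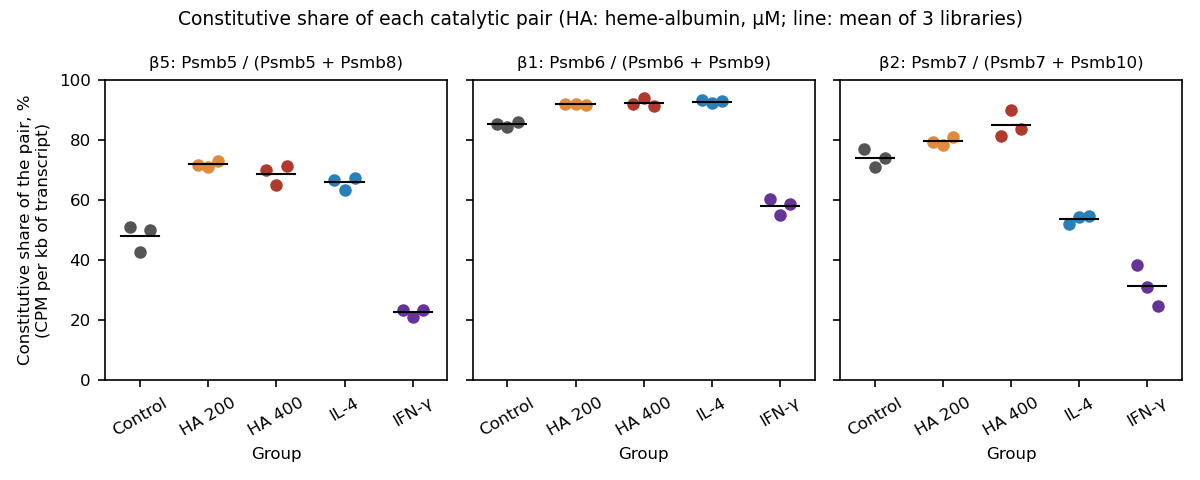
Share of the constitutive gene in each catalytic pair by CPM per kb of transcript (y axis, %) in the 15 libraries, with lines at means of 3. At β5 the share is 42.8% to 51.1% in controls, 70.9% to 72.9% at 200 µM heme-albumin and 21.1% to 23.6% with IFN-γ; at β2 IL-4 also lies below controls.

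Genes that assemble the proteasome or feed it were then read from the lists. Of 15 assembly and accessory genes 4 rose at 200 µM and 5 at 400 µM, and 0 fell, with a median of 0.18 and 0.20. Over all genes tested 14% and 14.7% rose at these doses, and 9.48% and 10.8% fell. Psmd5, a chaperone of the regulator's ATPase ring, went from 51.2 ± 2.20 CPM in controls to 117 ± 2.85 and 128 ± 16.8 (1.19 ± 0.10 and 1.31 ± 0.10). Adrm1, the ubiquitin receptor Rpn13, went from 27.9 ± 1.94 to 74.1 ± 6.79 at 200 µM (1.41 ± 0.21) and 42.8 ± 15.1 at 400 µM (0.62 ± 0.21, adjusted p = 0.0426, and 0.0587 with the replicate block). It also rose with IL-4 (0.97 ± 0.21). Pomp, the chaperone that completes the core, rose by 0.45 ± 0.10 and 0.34 ± 0.10 with heme-albumin and by 0.71 ± 0.10 with IFN-γ. Txnl1, a thioredoxin that binds the regulator, rose by 0.40 ± 0.10 and 0.43 ± 0.10. The calls of Adrm1 and Pomp at 400 µM, of Txnl1 at 200 µM and of Psmd5 with IFN-γ were lost when some single libraries were left out. In the IFN-γ libraries 3 of the 15 rose and 4 fell, Psmd5 (-0.31 ± 0.10) among them, and with IL-4 3 rose and 1 fell. For a list this short, these counts were near the shares of all genes. With IFN-γ 24.1% of all genes rose and 19.5% fell, and with IL-4 14.9% rose and 12% fell.

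Of 14 genes of ubiquitin and its carriers 10 rose at 200 µM, 6 at 400 µM, 2 with IL-4 and 2 with IFN-γ, where 1 fell. Over all genes 14%, 14.7%, 14.9% and 24.1% rose in these comparisons, and 19.5% fell with IFN-γ. The counts with the cytokines were not above those shares. Sqstm1 (p62), which links ubiquitin to autophagy, went from 561 ± 57.2 CPM to 2121 ± 449 and 2326 ± 664 with heme-albumin (1.92 ± 0.26 and 2.05 ± 0.26), and to 1243 ± 496 with IFN-γ (1.15 ± 0.26). Rad23b, a shuttle that brings substrates to the proteasome, rose by 0.63 ± 0.09 and 0.70 ± 0.09. Vcp, the ATPase that extracts ubiquitinated proteins, rose by 0.67 ± 0.11 and 0.59 ± 0.11, and its cofactor Nploc4 by 0.49 ± 0.08 and 0.38 ± 0.08. The median of the list was 0.40 at 200 µM and 0.36 at 400 µM.

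The list of 6 regulators holds transcription factors known to act on proteasome or antioxidant genes and proteins that process or bind them. At each heme-albumin dose 1 of the 6 rose and 1 fell, and with IFN-γ 3 rose and 0 fell (median 0.35). Over all genes 14% rose and 9.48% fell at 200 µM, and 14.7% and 10.8% at 400 µM. In a list of 6 genes the heme-albumin counts are near those shares. With IFN-γ 24.1% of all genes rose and 19.5% fell. Nfe2l1, whose protein drives proteasome genes when the proteasome is impaired, read 248 ± 20.8 CPM in controls, 209 ± 1.09 at 200 µM and 207 ± 2.91 at 400 µM. It fell by 0.25 ± 0.08 on the log2 scale at both doses (adjusted p = 0.0474 and 0.0378), calls that were lost under several settings, and rose with IFN-γ (0.33 ± 0.08). Nfe2l2, the NRF2 factor of the oxidative stress response, had values of -0.38 ± 0.19 and -0.32 ± 0.19 (adjusted p = 0.166 and 0.236). Fitted to the 6 libraries compared, the value at 200 µM passed (adjusted p = 0.00312), and with both libraries that stood apart left out the value at 400 µM passed (adjusted p = 0.00248). Bach1, the heme-binding repressor of Hmox1, rose by 0.44 ± 0.13 and 0.68 ± 0.13, the first of which was lost when some single libraries were left out, and by 1.03 ± 0.13 with IFN-γ. Nfe2l1 and Nfe2l2 proteins are known to be controlled after transcription, which mRNA does not show.

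Facts of the whole series bear on these values as follows. Total counts were 8427352 to 28587416 per library, of which the 31 genes held 0.370% to 0.570%. The treatments were visible in their known target genes. Hmox1, which degrades heme, was at 867 ± 219 CPM in controls, 26436 ± 2141 at 200 µM and 23500.0 ± 1791 at 400 µM. Arg1 was at 1.28 ± 0.886 in controls and 3553 ± 529.7 with IL-4, and Irf1 at 50.2 ± 6.49 and 1359 ± 221 with IFN-γ. All 7 macrophage markers were detected in every group, with sums from 12776 to 52957 CPM on unscaled totals, lower with IL-4 and IFN-γ than in the other groups. The most abundant marker weighs most in these sums, with a mean of 31730 CPM in controls and 9905 with IFN-γ. The lowest marker mean was 62.8 CPM in controls, 35.7 at 200 µM, 21.1 at 400 µM, 8.44 with IL-4 and 240 with IFN-γ. The sums thus do not speak for each marker. The 5 neutrophil markers summed to at most 48.8 CPM, and were 8.55 to 48.8 with heme-albumin and 1.66 to 8.90 in controls. The 3 platelet markers, with Gp9 at 0 in every group, summed to 360 to 594 at 400 µM, 392 to 457 at 200 µM, 140.0 to 274 in controls and 11.8 to 34.8 with IFN-γ. The 3 dendritic cell markers summed to 0.854 to 12.4 with IFN-γ and 0.430 to 0.831 in controls. The 4 stromal markers summed to 6.10 to 14.98 with IFN-γ, 3.15 to 8.91 with IL-4 and 1.54 to 2.30 in controls. T and NK, B cell and erythroid markers were at or near 0. The part of these markers in the subunit changes was not tested. The 10 most abundant genes held 16.0% to 20.5% of a heme-albumin library, against 10.8% to 11.7% of a control library.

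Some of the 31 genes are harder to count than others. Exons of Psma4, Psma5, Psmb7, Psmc3, Psmd1, Psmd3 and Psmd13 overlap a gene on the opposite strand, and those of Psmb5 and Psmd1 one on the same strand, so their counts are uncertain. Psma3, Psma4, Psma5, Psmb3, Psmb5, Psmc1, Psmd2 and Psmd11 have at least 1 other annotated gene with a stretch of 200 bases or more at 95% identity or more. Only Psma3 and Psmb3 had a copy among the identifiers of the count table, and it had 0 counts. The copies of the other genes just named were not in it. Reads that fit both places could have been dropped for any of these genes. Psmb7, Psmd1 and Psmd13 share such a stretch with a gene that overlaps them, Nek6, Gm21972 and Sirt3. These 3 had 23675, 7714 and 2074 counts, against 29720, 48626 and 24300 for the subunit genes.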

How the data were processed

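RNA from 15 macrophage libraries, 5 groups of 3, was sequenced from Illumina TruSeq stranded libraries, per the labels' protocols. The deposited file gives raw read counts for each gene. Per the submitters' processing notes, the authors used STAR 2.7.0e, SAMtools 1.9 and featureCounts with GRCm38.p5; which annotation and strand option were used is not given in the sources used here. Treatment tags of the higher dose differ slightly between replicates, and 400 µM is the dose in the titles and protocol. Positions and lengths came from GENCODE M21 (GRCm38), which matched 25664 of 25700 identifiers by ID.

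The counts were filtered with filterByExpr, scaled by TMM (factors 0.886 to 1.12) and fitted with edgeR 4.0.16 in R 4.3.3 (limma 3.58.1), 1 mean per group over all 15 libraries, with Benjamini-Hochberg adjustment within each of 7 comparisons. Per-kb levels used the longest principal transcript. The 31 genes and the lists were chosen with earlier results of these data known. Values per library are given for the 2 genes of largest change at 200 µM in each subunit class, for every gene that fell and, chosen after their values were seen, for Psma4 and Psmb6; the 3 highest and lowest genes of each comparison with control and up to 4 genes of each related list are named. Promoters were read from RefSeq (GRCm38.p6). No replicate was a copy of another: chi-square over degrees of freedom between them was 7.12 to 135.

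Libraries of the same number share 1 of 3 dates in the headers, which pairs them across groups; what they mark is not stated. Deviations from group means had a median correlation of 0.193 (-0.206 to 0.512) over 30 same-number pairs, 21 of them over 0.1, and -0.0992 over 60 other pairs. The block was an alternative, beside DESeq2 1.42.0, DESeq2 or upper-quartile factors, no filter, a stricter one (5 CPM in 3 libraries), fits restricted to the libraries compared, each library left out and, chosen after seeing the data, heme-albumin 400 µM replicate 2 and IFN-γ replicate 3 left out together. On simulated counts for 200 µM against control over 11757 genes, the fit recovered 17 of 50 genes at a true fold of 1.5 and 39 of 50 at a true fold of 2. The simulation gave 109 calls, against 1658 rises and 1127 falls in the data, so its adjusted threshold was stricter. These recovery counts are therefore not the power of the reported comparison. Plots were made in matplotlib 3.10.9 (Python 3.11.15).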

Additional observations from a re-analysis of the deposited data

How the results depend on the processing

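The numbers of rising genes stayed within 1.5 times the reported ones in the comparisons of heme-albumin with control and with IL-4, of IFN-γ with control, and between doses. Leaving out 1 library at a time gave 21 to 28 rises at 200 µM (reported 28), 15 to 24 at 400 µM (21), 3 with IL-4 (3), 8 to 10 with IFN-γ (9), 16 to 21 against IL-4 (17) and 11 to 20 against IFN-γ (18). The same gave 0 to 1 falls at 200 µM (1), 0 to 1 at 400 µM (0), 0 to 1 with IL-4 (1), 0 to 3 with IFN-γ (2) and 0 to 2 against IFN-γ (1). Falls at 400 µM numbered 1 with the replicate block and 1 with both libraries that stood apart left out. Fitted to the libraries compared, IL-4 gave 6 rises and 3 falls, IFN-γ 1 fall, and heme-albumin 400 µM against IFN-γ 5 higher and 0 lower. DESeq2 gave 2 falls with IL-4, and the fit with no filter gave 1 with IFN-γ. With both libraries out, IFN-γ gave 1 fall, and 400 µM against IFN-γ gave 2 lower. Upper-quartile factors gave 0 lower against IFN-γ; they moved the median of all genes from -0.01 to 0.11 there and from 0.05 to -0.06 for IFN-γ against control, where the median of the 31 genes went from 0.11 to 0.00. The replicate block changed no other count by over 1.5 times. The causes were not tested. No named value changed sign: of the alternatives computed for 130 named values, 1594 kept their side of the threshold, 155 lost it and 15 gained it. Precision is limited by 3 libraries a group.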
